A study of Homo sapiens with 4 samples.

Results

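Of the 63507 distinct positions in the PABPC4 peak list of MDA-MB-231 cells, 2284 (3.596%) had their centre in an exon of a non-coding transcript, on the same strand, and in no 3′ UTR, coding sequence (CDS) or 5′ UTR of the GENCODE 44 annotation. They fell in 1693 genes and were separated by gene type: 758 lay in 495 lncRNA genes, 115 in 103 pseudogenes, 1298 in non-coding transcripts of 994 protein-coding genes, and 113 in 101 other genes (mitochondrial rRNA, small RNA and unclassified loci). The rule that defines them uses only position and annotation, though it was set with earlier results of these data known. Where exons of more than one class covered a centre, which happened for 27 peaks, the peak was counted in the first class in that order. For comparison, 18915 peaks lay in 3′ UTRs of protein-coding transcripts and 38249 in introns.

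MDA-MB-231 is an established human breast cancer cell line. PABPC4 was mapped with 2 samples of unmodified cells (Proteintech antibody), cross-linked with 400 mJ/cm2 of ultraviolet light at 254 nm, with no other treatment and no control immunoprecipitation analysed here. The method, PAPERCLIP, immunoprecipitates a poly(A)-binding protein with its RNA and then reverse-transcribes the RNA from a primer that ends in 15 T. The authors pooled the tags (unique sequenced fragments) of both samples before calling peaks, so each peak has 1 height, its pooled tags at the summit, and no value has a spread between samples. A second list of 9107 positions came from 2 samples immunoprecipitated for the RNA-binding protein HNRNPC (Santa Cruz antibody) in the same line, and was used only for overlaps.

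PABPC4 is a cytoplasmic poly(A)-binding protein that also shuttles to the nucleus, and it coats the tails added to RNA after cleavage. Cleavage is directed mainly by the hexamer AATAAA or ATTAAA (U in the RNA) a short way upstream, and many lncRNAs are cleaved and tailed in the same way as mRNAs. A primer made of T can pair with such a tail or with A that the genome encodes. For each peak, 3 features were therefore read: whether its 3′ edge lay within 25 nt of the annotated 3′ end of any transcript, whether either hexamer lay in the 40 nt that end at the edge, and whether the next 50 nt of genome held an A-rich stretch (6 A in a row, or at least 7 A in 10 nt). Which kind of A primed a given peak was not tested.

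The following sequences show the hexamer, which was most frequent in lncRNA genes but occurred in every class. They are the last 30 nt of peaks that ended at an annotated transcript end and carried a hexamer, written 5′ to 3′ from hg38 with the hexamer in capitals. The first 3 are snoRNA host lncRNAs (SNHG25 at chr17:64146230-64146311, plus strand, ZFAS1 at chr20:49289062-49289255, plus, and SNHG8 at chr4:118279716-118279822, plus). The next is a pseudogene, CENPBD2P (chr19:58584329-58584394, plus), and the last a non-coding transcript of POLR2A (chr17:7514510-7514612, plus).
SNHG25: tcccgtcAATAAAgtggtttgaacccaacc
ZFAS1: cctgcataaagaaAATAAAatcttttaaat
SNHG8: aATTAAATAAAatgcttaattcatgtggct
CENPBD2P: attatAATAAAcattattaatcattagctt
POLR2A: aagtttaAATAAAgtttactaattttgacc
The AATAAA began 17 nt (ZFAS1) to 25 nt (SNHG8 and CENPBD2P) before the edge. In SNHG8 the capitals also cover an ATTAAA that overlaps it.

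Of all members, 1255 (54.9%) had an A-rich stretch and no hexamer, and 658 (28.8%) had neither. Below are the 30 nt of genome that follow the 3′ edge in 4 peaks with long runs of A, with the A-rich stretch in capitals. Such runs are not typical, since 49.6% of members had an A at the first base after the edge. MANCR (peak at chr10:4651104-4651207, minus strand) and FTX (chrX:74278142-74278178, minus) are lncRNAs, and N4BP2L2 (chr13:32526846-32526961, minus) and RBM39 (chr20:35740211-35740307, minus) are protein-coding genes whose peaks lay in retained-intron transcripts.
MANCR: AAAAAAAAAAAAAAgggaaaatttcacata
FTX: AAAAAAAAAAAAAAAAggtggctcctgacc
N4BP2L2: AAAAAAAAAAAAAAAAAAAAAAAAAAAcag
RBM39: AAAAAAAAAAAAtacaagaggcagtagagt
In all 4 the first base after the peak was an encoded A. In RBM39 the run began there, whereas in MANCR, FTX and N4BP2L2 it already included the last base or bases of the peak. FTX also had ATTAAA 15 nt before the edge, whereas the other 3 had no hexamer.

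Peak heights varied widely within every class. The median member was 37 tags high (quartiles 19 and 60) and 47 nt wide, beside 38 tags in the whole list, 45 in 3′ UTRs and 35 in introns. Median heights were 32 tags in lncRNA genes, 35 in pseudogenes, 38 in non-coding transcripts of protein-coding genes and 41 in other genes. The 10 tallest members held 33.2% of the summed height of all 2284, and 7 mitochondrial rRNA peaks alone held 26.1%. Peaks of 1000 tags or more numbered 5 in lncRNA genes, 2 in pseudogenes, 5 in other genes and 0 in the protein-coding class, where the tallest, in MMP14, reached 395 tags. Heights follow the amount of each RNA as well as its binding, and these cannot be told apart here.

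**Figure D1:**
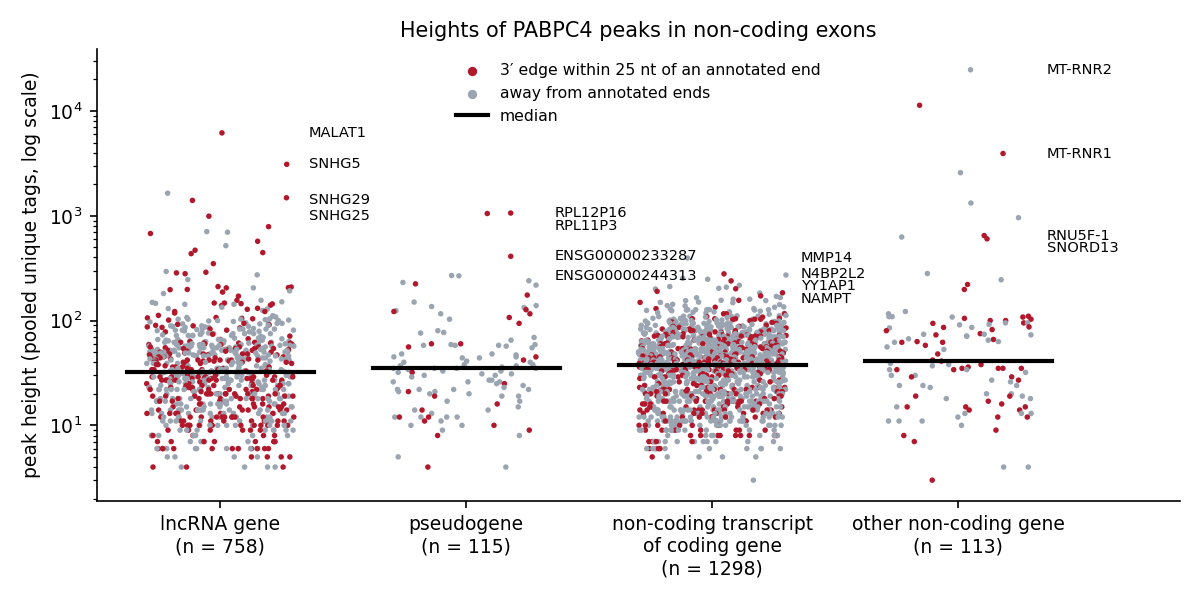
Each point is a PABPC4 peak in a non-coding exon, by class on the x axis and by height in pooled unique tags on a log y axis; red points have their 3′ edge within 25 nt of an annotated transcript end, and black lines are class medians (32, 35, 38 and 41 tags). The tallest peaks of lncRNA and other genes stand far above their class medians, while the protein-coding class stops at 395 tags; the genes of the tallest peaks are named to the right, moved apart where names would overlap.

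In all, 753 members (32.97%, 95% Wilson interval 31.07 to 34.92%) ended at an annotated transcript 3′ end, beside 16.5% of the whole list and 48.18% of 3′ UTR peaks. The whole-list share is low by construction, here and wherever it is given below. Introns hold 38249 of the 63507 positions, and 0.0549% of intron peaks were at an end. The members' share was 15.2 percentage points lower than in 3′ UTRs (interval of the difference 13.1 to 17.2 points lower, adjusted p = 1.49e-43, Fisher's exact test). All such tests were two-sided, with Benjamini-Hochberg adjustment over a family of 14. Intervals and p-values treat peaks as independent, cover counting error only and say nothing of the spread between samples, and peaks of 1 gene share their source. All but 1 of the 753 ends belonged to non-coding transcripts only. Counting only ends of non-coding transcripts for both groups turned the direction, since only 16.7% of 3′ UTR peaks then lay at such an end. The size also varied: with the tallest peak of each gene the shares were 34.2% in non-coding exons and 64.4% in 3′ UTRs, at or above the median height 30.4% and 53.7%, and with basic transcripts only 34.3% and 41.9%.

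Peaks in lncRNA genes were at annotated ends most often among the 3 main classes. There, 316 of 758 (41.69%, 38.2 to 45.2%) were at an end, against 355 of 1298 (27.35%, 24.99 to 29.8%) in non-coding transcripts of protein-coding genes, a difference of 14.3 points (10.1 to 18.6, adjusted p = 6.29e-11, Fisher's exact test). Pseudogene peaks were at an end in 28 of 115 cases (24.35%, 17.4 to 32.9%), 17.3 points below lncRNA genes (8.08 to 25.1, adjusted p = 0.000411, Fisher's exact test). That last call was lost in the taller part of the list (median height or more), where the difference was 7.41 points (adjusted p = 0.407, Fisher's exact test). With a limit of 100 nt it was 9.56 points (adjusted p = 0.0654, Fisher's exact test). Of the peaks in other genes, 54 of 113 (47.8%) were at an end. Many of these genes encode short RNAs, in which much of the gene lies close to its end.

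The edges sat close to the annotated ends. Among members at an end, the median offset was 3 nt before it (quartiles 12 nt before and 1 nt past), and 67 edges lay exactly on the annotated base. In lncRNA genes, 30.1% of all peaks were within 10 nt of an end, whereas 14.02% were in the protein-coding class and 17.4% in pseudogenes.

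**Figure D2:**
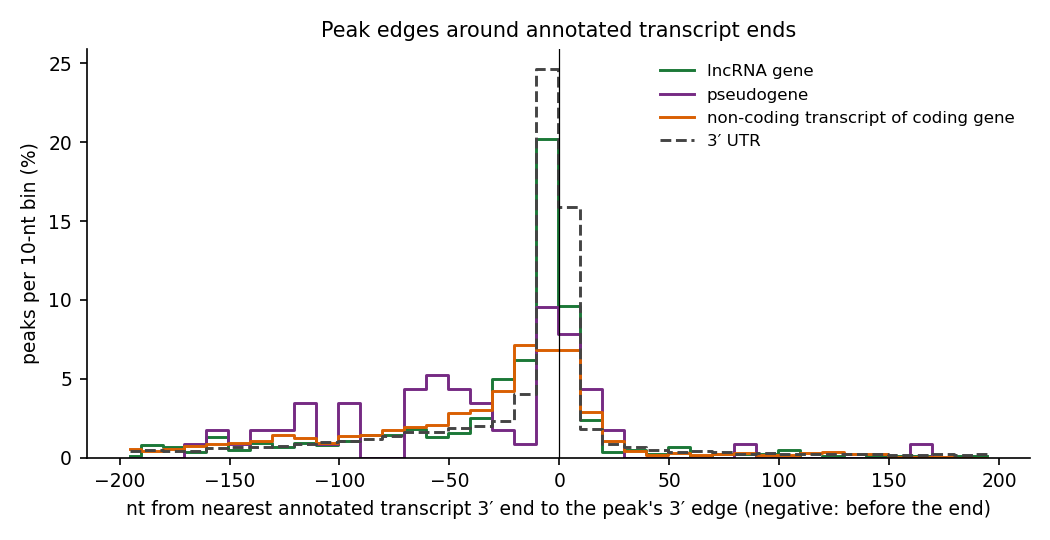
Distance in nt from the nearest annotated transcript 3′ end to the peak's 3′ edge (x axis, negative before the end, from -200 to 200) against the percentage of each class per 10-nt bin (y axis), for lncRNA genes, pseudogenes, non-coding transcripts of protein-coding genes and, dashed, 3′ UTRs. LncRNA gene peaks gather just before position 0 much as 3′ UTR peaks do, and the protein-coding class is flatter, with 14.02% of its peaks within 10 nt against 30.1% in lncRNA genes.

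A poly(A) signal hexamer was found before 371 members (16.24%, 14.8 to 17.8%), beside 19.4% of the whole list. This was 32.3 points lower than the 48.59% in 3′ UTRs (adjusted p = 1.75e-207) and 9.85 points higher than the 6.40% in introns (adjusted p = 7.52e-55, both Fisher's exact tests). With basic transcripts only, the member and intron shares were 24.3% and 6.54%. As a measure of how often the hexamers occur, 4.83% of all 40-nt windows laid end to end along the non-coding exons of the same genes held one. By class, lncRNA genes had 219 of 758 (28.89%, 25.8 to 32.2%), pseudogenes 15 of 115 (13.04%, 8.07 to 20.4%), the protein-coding class 131 of 1298 (10.09%, 8.57 to 11.9%) and other genes 6 of 113 (5.31%). The lncRNA share was 18.8 points above the protein-coding class (15.2 to 22.5, adjusted p = 2.13e-26) and 15.8 points above pseudogenes (7.85 to 21.8, adjusted p = 0.000366, Fisher's exact tests). In the taller part of the list the difference from pseudogenes was 12.4 points and no longer passed (adjusted p = 0.0582, Fisher's exact test).

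Hexamers were more frequent at annotated ends. There, 263 of 753 members (34.93%) had a hexamer, compared with 108 of 1531 (7.05%) away from ends, a difference of 27.9 points (24.3 to 31.5, adjusted p = 4.84e-60, Fisher's exact test). With a limit of 100 nt for an end the shares were 23.9% and 8.30%. The signal began most often 19 nt before the edge, and 196 of the 263 (74.5%) began 15 to 26 nt before it. In lncRNA genes 56.65% of peaks at ends had a hexamer and 9.05% of those away from them. In pseudogenes the shares were 35.7% of 28 and 5.75% of 87, and in the protein-coding class 19.15% of 355 and 6.68% of 943. The gap between lncRNA genes and the protein-coding class at annotated ends was 37.5 points (30.4 to 44.03, adjusted p = 2.86e-23, Fisher's exact test, 1 of 6 tests chosen after these shares were seen and adjusted over those 6).

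**Figure D3:**
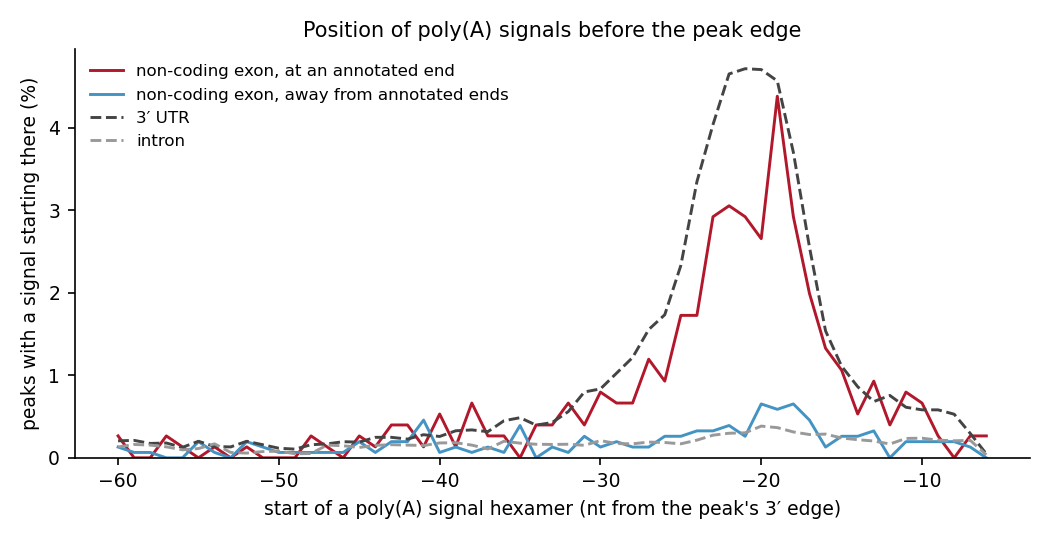
Percentage of peaks (y axis) with AATAAA or ATTAAA starting at each position before the peak's 3′ edge (x axis, nt), for non-coding exon peaks at annotated ends (red), non-coding exon peaks away from them (blue), 3′ UTR peaks (dashed black) and intron peaks (dashed grey). The red curve is highest 19 nt before the edge, near the 3′ UTR maximum at 21 nt, whereas the blue curve stays low throughout.

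An A-rich stretch followed 1366 members (59.81%, 57.8 to 61.8%), beside 58.5% of the whole list. The share was 27.9 points above 3′ UTR peaks (31.94%, adjusted p = 1.25e-144) and 11.4 points below intron peaks (71.24%, adjusted p = 2.19e-29, both Fisher's exact tests). With basic transcripts only, the member and intron shares were 50.6% and 71.1%. Non-coding transcripts of protein-coding genes had the highest share of the 3 main classes, 860 of 1298 (66.26%), lncRNA genes 378 of 758 (49.87%) and pseudogenes 66 of 115 (57.39%). The lncRNA share was 16.4 points below the protein-coding class (11.98 to 20.7, adjusted p = 6.73e-13, Fisher's exact test). Against pseudogenes it was 7.52 points lower, with an interval from 16.9 points lower to 2.28 points higher that includes 0 (adjusted p = 0.145, Fisher's exact test). Windows along the same genes' non-coding exons were A-rich in 19.8% of cases.

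The classes were also compared at and away from annotated ends. In lncRNA genes 40.8% of peaks at ends were followed by an A-rich stretch and 56.3% of those away from ends, whereas in the protein-coding class the shares were 71.8% and 64.2%. This change of order between classes was not itself tested. At ends, the lncRNA share was 31.0 points below the protein-coding class (23.6 to 37.9, adjusted p = 9.54e-16, Fisher's exact test chosen after the shares were seen). Over all members the shares at and away from ends were 57.24% and 61.07% (adjusted p = 0.0986, Fisher's exact test, interval of the difference from 8.13 points lower to 0.44 points higher). That order turned when the A-rich stretch had to lie within 20 nt (46.3% at ends, 40.9% away, adjusted p = 0.0156, Fisher's exact test). At a limit of 10 nt for an annotated end the shares were 46.6% and 63.2% (adjusted p = 1.59e-10, Fisher's exact test).

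**Figure D4:**
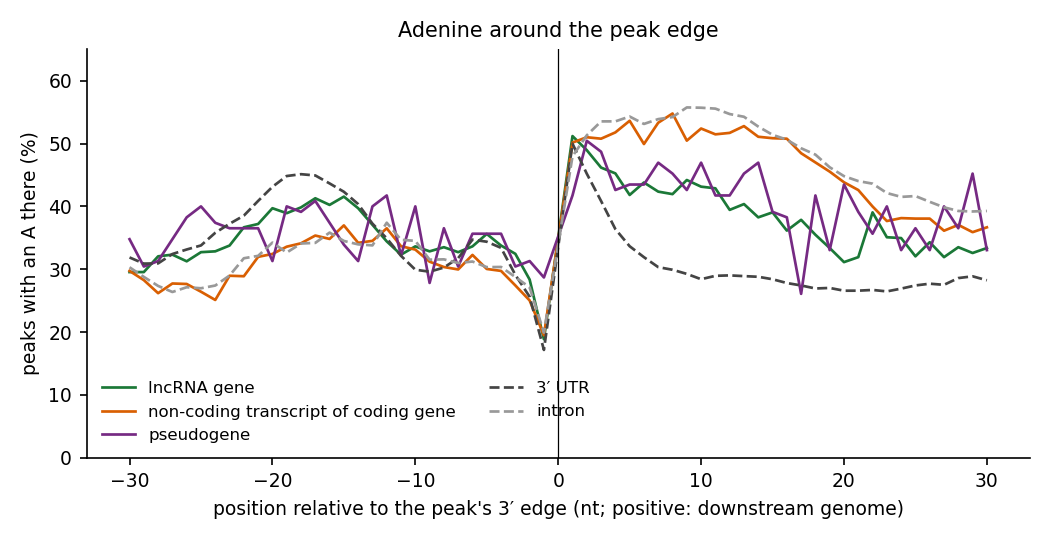
Percentage of peaks with an A (y axis) at each position from 30 nt before to 30 nt after the peak's 3′ edge (x axis, nt), for the 3 main non-coding classes (solid) and for 3′ UTRs and introns (dashed). All curves rise at the edge; 11 to 30 nt downstream the 3′ UTR curve has fallen to a mean of 27.7%, lncRNA genes average 35.6%, pseudogenes 38.5%, the protein-coding class 43.7% and introns 45.9%.

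Taking both features, 260 members had a hexamer and no A-rich stretch, 1255 an A-rich stretch and no hexamer, 111 both and 658 neither. A hexamer without an A-rich stretch marked 22.6% of lncRNA gene peaks, 6.01% of the protein-coding class and 4.35% of pseudogene peaks, compared with 39.8% of 3′ UTR peaks and 2.12% of intron peaks.

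**Figure D5:**
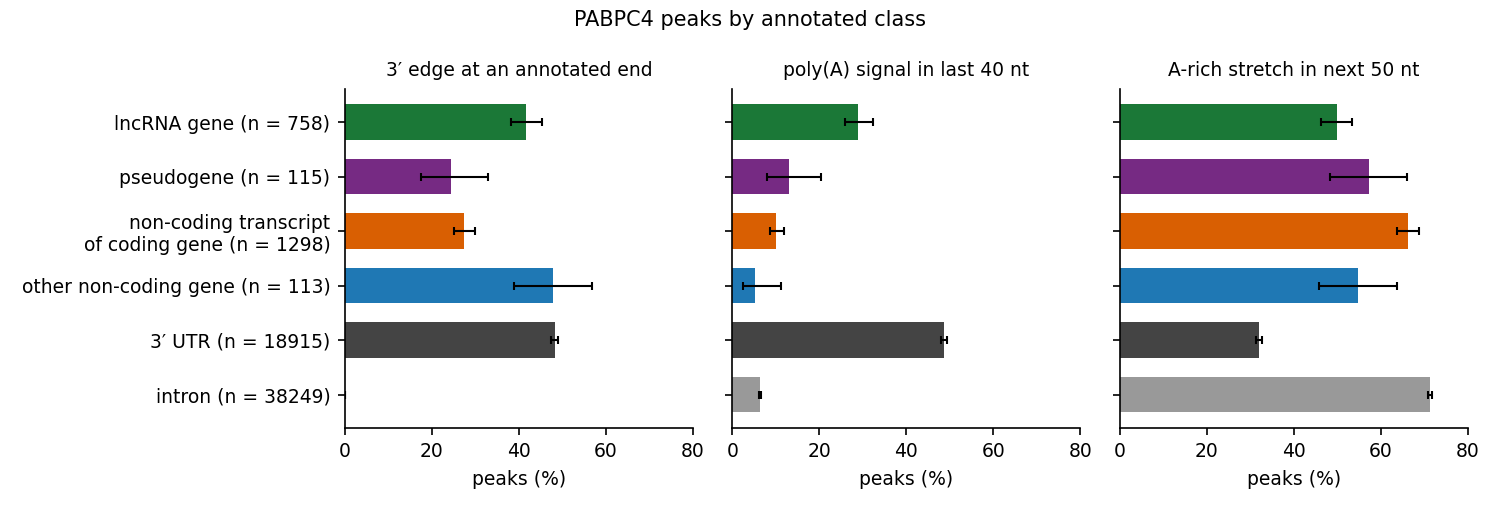
Percentage of peaks (x axes) with each feature, by annotated class (y axis, with the number of peaks), for edges at an annotated end, a hexamer in the last 40 nt and an A-rich stretch in the next 50 nt; bars are shares and whiskers 95% Wilson intervals. LncRNA genes lie between 3′ UTRs and introns for hexamers (28.89%, 48.59% and 6.40%) and for A-rich stretches (49.87%, 31.94% and 71.24%), and the protein-coding class lies nearer to introns for both.

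LncRNA genes were mostly represented by a single peak, with 364 of the 495 genes holding 1, 73 holding 2 and 58 holding 3 or more. With each gene counted once by its tallest peak, the tallest were in MALAT1, a nuclear speckle RNA (6176 tags), SNHG5 (3096 tags), SNHG29 (1401 tags), SNHG25 (991 tags), MANCR, a lncRNA associated with mitosis (787 tags), NEAT1, the scaffold RNA of paraspeckles (706 tags), SNHG6 (677 tags), ZFAS1 (445 tags), GAS5 (349 tags) and SNHG8 (289 tags). Of these 10 peaks, 9 were at an annotated end and 6 had a hexamer, beside 41.69% and 28.89% of all lncRNA gene peaks. All but MALAT1, MANCR and NEAT1 are snoRNA host genes, described below. Height itself did not go with higher shares: lncRNA gene peaks at or above the median height of the whole list had 36.8% and 22.2%. Further peaks of MALAT1, SNHG5 and NEAT1, given below, were taller than some of these 10. The NEAT1 peak was away from any end, and MALAT1, SNHG5 and MANCR ended at annotated ends without a hexamer in the last 40 nt.

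The snoRNA host genes, whose introns carry small nucleolar RNAs, held 40 peaks in 22 of 32 annotated genes, with a median height of 92.5 tags. Of the 40, 28 (70.0%, 54.6 to 81.9%) were at an annotated end, 22 (55.0%) had a hexamer and 8 were followed by an A-rich stretch, beside 41.69%, 28.89% and 49.87% of all lncRNA gene peaks and 16.5%, 19.4% and 58.5% of the whole list. An end here is that of any transcript, so a host gene peak can lie at the end of the snoRNA itself. The 206-tag peak of SNHG1, at an end and without a hexamer, also lay in the snoRNA gene SNORD26. Such peaks were not separated. SNHG7 was the only one of the 22 with no peak at an end, and SNHG7 and SNHG12 had no hexamer before any peak. SNHG5 had 3 peaks of 3096, 571 and 38 tags, each 1 nt before an annotated end, and the hexamer began 23 nt before the edge of the lower pair. SNHG16 had 6 peaks of 29 to 280 tags, the tallest being the most 3′, 2 nt before an end and 22 nt after the start of a hexamer.

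The tallest SNHG5 peak (chr6:85677320-85677367, minus strand) is shown because the encoded A lies inside it, where the downstream rule does not look. Its last 30 nt follow, with the run of 10 A in capitals.
SNHG5: ccgaacctgaacttctgttgAAAAAAAAAA
The peak was listed under both SNHG5 and the snoRNA gene SNORD50A, which SNHG5 hosts. A run of 6 or more A in the last 30 nt was found in 184 members (8.06%), beside 7.77% of 3′ UTR peaks and 8.65% of intron peaks.

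Widely studied lncRNAs held 60 peaks in 13 of 17 genes, of which 21 (35.0%) were at ends, 12 (20%) had a hexamer and 36 (60%) were followed by an A-rich stretch. These shares were 41.69%, 28.89% and 49.87% over all lncRNA gene peaks and 16.5%, 19.4% and 58.5% over the whole list, so the hexamer and A-rich shares lay near those of the whole list. MALAT1 had 6 peaks, in 5′ to 3′ order of 1641, 6176, 205, 294, 1485 and 469 tags. The tallest lay 7 nt past the annotated end of a shorter transcript, and only the fifth had a hexamer. NEAT1 had 9 peaks of 39 to 706 tags, and the one at an annotated end, with 435 tags, also had its only hexamer, 23 nt before the edge. NORAD, a cytoplasmic RNA that binds Pumilio proteins, had 4 peaks of 143, 134, 64 and 285 tags, and the most 3′ was the tallest, with a hexamer, 6 nt before an end. OIP5-AS1 had 5 of its 6 peaks at ends but 1 hexamer. KCNQ1OT1, an imprinted antisense RNA, and FTX, from the X-inactivation centre, each had 9 peaks, of 13 to 75 and 11 to 145 tags. A-rich stretches followed 7 of the 9 in KCNQ1OT1 and 6 of the 9 in FTX.

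The lncRNA gene peaks were also described by how their gene is named. Genes named as antisense to a neighbour had 187 peaks, 47.1% at ends and 38.5% with a hexamer. Divergent transcripts (names ending in DT) had 65 peaks, with 33.8% and 27.7%, and LINC genes 91 peaks, with 34.1% and 28.6%. The 193 peaks in lncRNA genes with an Ensembl ID only had 37.3% at ends, 16.1% with a hexamer and 59.6% followed by an A-rich stretch. Host genes of microRNAs held 23 peaks in 13 of 71 annotated genes, of which 9 (39.1%) were at ends, 7 (30.4%) had a hexamer and 13 (56.5%) an A-rich stretch, beside 41.69%, 28.89% and 49.87% of all lncRNA gene peaks and 16.5%, 19.4% and 58.5% of the whole list. The tallest was in MIR100HG (181 tags), away from an end and with neither feature.

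Pseudogenes are copies of genes, and processed pseudogenes are copies of spliced mRNAs. No pseudogene peak of 20 nt or longer had another exact place in the genome (0 of 111, which at 3 counts allows a share of up to 2.70%), as against 3 of 738 in lncRNA genes (adjusted p = 1, Fisher's exact test, interval of the difference from 1.19 points lower to 2.95 points higher for pseudogenes). Over the last 30 nt only, however, 22.6% of pseudogene peaks and 11.7% of lncRNA gene peaks had another exact place, so the direction turned (adjusted p = 0.00319, Fisher's exact test). The same share was 21.7% in the protein-coding class and 19.5% in other genes, so lncRNA genes were the low class. Spliced transcripts gave a larger contrast, but a difference in this direction is built into the definition of a pseudogene as a copy. The tests of it that follow therefore describe the annotation and decide nothing about PABPC4 binding. Within 2 mismatches, 54 of 111 pseudogene peaks (48.6%, 39.6 to 57.8%) matched a transcript of another gene, compared with 83 of 738 in lncRNA genes (11.2%, adjusted p = 4.65e-18), and 18 of 111 matched exactly, compared with 2 of 738 (adjusted p = 7.92e-15, Fisher's exact tests chosen after the data were seen). Within 2 mismatches, 14.8% of 1266 peaks in the protein-coding class and 17.4% of 109 in other genes also matched. The YY1AP1 peak of 272 tags, for example, was 1 mismatch from XPO1. Tags that lie within the 18 exactly matched pseudogene peaks have the same sequence in both transcripts and cannot be told apart. The match was to the closest transcript of another gene, which need not be the parent. For example, the 80-tag peak of ZNF271P was 2 mismatches from ANKRD44.

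The tallest pseudogene peaks were in RPL12P16 (1061 tags, identical to a stretch of RPL12 mRNA), RPL11P3 (1051 tags, 5 mismatches to RPL11), ENSG00000233287 (410 tags, 3 mismatches to RPL27), ENSG00000244313 (269 tags, identical to RPS10) and HSP90B2P (267 tags, 12 mismatches to HSP90B1). All but the last have parents that encode ribosomal proteins. In the list, 74 of 115 pseudogene peaks carried only another gene's ID, as did 221 of 758 lncRNA gene peaks, 87 of 113 in other genes and 21 of 1298 in the protein-coding class. LncRNA gene peaks listed under their own gene had a hexamer in 33.1% of cases and those listed only under another ID in 18.6%, a difference that was not tested. RPL12P16 was listed under NBEAL1, ENSG00000233287 under MKLN1 and ENSG00000244313 under AMBRA1. Pseudogenes named for ribosomal proteins held 29 peaks in 27 of 1496 annotated genes, 13 at ends (44.8%), 5 with a hexamer (17.2%) and 13 followed by an A-rich stretch (44.8%). These shares were 24.35%, 13.04% and 57.39% over all pseudogene peaks and 16.5%, 19.4% and 58.5% over the whole list.

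RPL13AP20, a copy of RPL13A (chr12:12876077-12876123, plus strand, 175 tags, 1 mismatch), is shown because it holds both the hexamer and an encoded run of A. The first line is the last 30 nt of the peak, with the hexamer in capitals, and the second the 30 nt of genome that follow, with the A-rich stretch in capitals.
RPL13AP20 peak: acggactcctggtctgagcccAATAAAgac
RPL13AP20 downstream: tgttaattcctcAAAAAAAAAAAAAAAAAA
Its hexamer began 9 nt before the edge, later than in most members. Among all pseudogene peaks, 10 had both features and 5 a hexamer alone. CENPBD2P (35, 59 and 127 tags in 5′ to 3′ order) and ZNF271P (40, 12 and 80 tags) had 3 peaks each, and in both genes the single peak at an annotated end was also the one with a hexamer.

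Within the protein-coding class, 997 peaks lay only in transcripts annotated as retained introns, 267 only in transcripts whose coding sequence is not defined, and 34 in both or in other types. Since 1257 of the 1298 also lay inside an intron of a coding transcript, most were intronic by the gene's coding annotation. Peaks in retained introns had a hexamer in 7.82% and an A-rich stretch in 69.3%, and peaks in transcripts of undefined coding sequence in 17.2% and 56.2%. The differences were 9.40 points lower (adjusted p = 1.76e-05) and 13.1 points higher (adjusted p = 7.67e-05) for retained introns, by Fisher's exact tests chosen after the data were seen. The 41 peaks outside every coding transcript's intron had a hexamer in 11 cases (26.8%).

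The tallest peaks of this class were in MMP14, a membrane-bound matrix metalloprotease (395 tags), N4BP2L2 (279 tags), YY1AP1 (272 tags), NAMPT, an enzyme of NAD salvage (253 tags), RBM39, a splicing factor (248 tags), POLR2A, the largest subunit of RNA polymerase II (239 tags), HGS, an endosomal sorting protein (217 tags), and SPG7, a mitochondrial protease (211 tags). The MMP14 peak began 41 nt before the annotated start of the gene and was the tallest of those outside every coding transcript's intron. Only POLR2A had a hexamer, and only POLR2A and N4BP2L2 were at an annotated end. The POLR2A peak ended 433 nt past the last annotated end of a protein-coding transcript of the gene and 4 nt before the end of a transcript of undefined coding sequence. G3BP1, a stress granule protein, had 6 peaks of 25 to 103 tags, with a pair exactly on annotated ends that both had a hexamer. NFIA, a transcription factor, had 6 peaks of 23 to 100 tags, none at an end and none with a hexamer, and LRPPRC, a regulator of mitochondrial RNA, had 6 of 10 to 48 tags, 1 of them at an end.

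The same genes usually carried taller peaks in their 3′ UTR. Of the 994 genes, 823 (82.8%) also had a 3′ UTR peak listed under their symbol, and in 620 of those (75.3%) the tallest non-coding exon peak was the lower one. The median non-coding exon peak was 44.05% as high as the 3′ UTR peak of its gene (quartiles 18.7 and 97.9%). For MMP14 the heights were 395 and 1678 tags, and for RBM39 248 and 506 tags. The order was the other way round in N4BP2L2 (279 and 39 tags), SPG7 (211 and 43), YY1AP1 (272 and 94), NAMPT (253 and 205) and HGS (217 and 196).

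Among other genes, the mitochondrial rRNAs were highest. These RNAs carry short A tails. MT-RNR2, the large-subunit rRNA, had 3 peaks of 2577, 24717 and 11325 tags in 5′ to 3′ order, and MT-RNR1, the small-subunit rRNA, had 4 of 1323, 958, 627 and 3924 tags. The last peak of each gene ended within 25 nt of the annotated end, 8 nt past it in MT-RNR2 and 1 nt past it in MT-RNR1, and the other 5 did not. No hexamer preceded any of the 7, and 3 were followed by an A-rich stretch. The 22 annotated mitochondrial tRNA genes had no member. These 7 rRNA peaks were the only peaks of the whole PABPC4 list on the mitochondrial chromosome.

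RNAs that in general end without a long poly(A) tail (small nuclear, nucleolar and Cajal body RNAs and the RNAs RN7SK, RN7SL1, RN7SL2, RMRP and RPPH1) held 51 peaks in 51 of 2896 annotated genes, and 13 of the 51 peaks are counted in another class because a host exon also covers them. Their median height was 58 tags, 28 (54.9%) were at an annotated end, 3 (5.88%) had a hexamer and 19 (37.3%) were followed by an A-rich stretch, beside 16.5%, 19.4% and 58.5% of the whole list. The tallest were RNU5F-1, a spliceosomal RNA (647 tags), and SNORD13 (602 tags), both within 10 nt of their annotated end and with neither sequence feature. These peaks were 107 and 101 nt wide, began 1 and 0 nt from the gene start and so covered nearly the whole gene. In genes this short much of the sequence lies close to the end, so their share at ends cannot be set against that of the whole list. RN7SK (105 tags), RMRP (35 tags) and RN7SL1 (17 tags) also had a peak at their end. VTRNA1-3, a vault RNA, had a peak of 281 tags that stopped 40 nt before its end.

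Overlap with HNRNPC peaks was rare. By at least 1 nt, 16 members (0.701%) overlapped one, beside 0.148% of the whole PABPC4 list, and 4 of these were mitochondrial rRNA peaks. The others included SNHG29 (1401 tags), 1 peak each of MALAT1 (294 tags) and NEAT1 (43 tags), and RN7SK, RMRP and RN7SL1. HNRNPC had 494 peaks of its own in non-coding exons, in 397 genes, and 123 genes held non-coding exon peaks of both proteins, which is 7.27% of the PABPC4 genes and 31.0% of the HNRNPC genes. The matching share over all genes was not computed, so these gene counts have no background and whether they exceed it was not tested. The lists of HNRNPC and PABPC4 come from different protocols, so the overlap of positions is only a description. The paper compared 3′ UTR targets instead and reported most HNRNPC targets as also bound by PABPC4, which the overlap in non-coding exons does not address.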

How the data were processed

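The signal values used were the peak heights the authors deposited: for each protein, 1 list made from the pooled unique tags of 2 samples, not scaled to depth. For CLIP tags the authors collapsed unique molecular identifiers, trimmed with cutadapt, aligned with BWA 0.7.17 to hg38, removed duplicates and called valley-seeking peaks within gene IDs with the CLIP Tool Kit. The PABPC4 tags are not described separately. Library depth is unknown. The lists also hold the authors' p-values, used only as a filter.

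Each of 63507 positions was kept once from 69778 entries and placed by its centre in GENCODE 44. The 1137 peaks in 3′ UTRs of other transcript types only (mostly nonsense-mediated decay) were in no group compared. Members and gene lists were chosen with earlier results of these data known. Features, exact genome matches (either strand, peaks of at least 20 nt) and BLAST 2.17.0+ matches to other genes' transcripts were computed in Python 3.11.15 and tested with SciPy 1.17.1 (two-sided Fisher's exact tests). The share tests and the placement of peaks were tested on simulated data. Repeat annotation was not used here. Genes named were the tallest and the most peak-rich of each class and members of 6 lists. Alternatives covered thresholds, windows, annotation subsets, 1 peak per gene and every listed entry; ignoring coding transcripts of other types was chosen after seeing the data. Some items are not reported here.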

Additional observations from a re-analysis of the deposited data

How the results depend on the processing

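Of 182 recalculations of the 14 tested differences, 170 had the same direction and the same call. At or above the median height, members numbered 1120 (334 in lncRNA genes, 51 in pseudogenes, 675 in the protein-coding class and 60 in other genes) and overlaps with HNRNPC 10, fewer by construction. There, lncRNA genes exceeded pseudogenes by 7.41 points for ends and 12.4 points for hexamers, and neither passed. A limit of 100 nt for ends gave 9.56 points, which did not pass. Counting only ends of non-coding transcripts put members 16.3 points above 3′ UTR peaks, because most 3′ UTR ends are then not counted. Over the last 30 nt, pseudogene peaks exceeded lncRNA gene peaks by 10.9 points in exact second places.

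The difference in A-rich stretches at and away from ends was the least stable. It turned to 3.16 points higher at ends among the taller peaks and 5.46 points higher within 20 nt. It passed with the tallest peak of each gene (-5.78 points), the 3′ edge in place of the centre (-7.82), basic transcripts (-7.55), and end limits of 10 nt (-16.6) and 100 nt (-9.73). The cause was not tested.

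Basic transcripts left 894 members, with 0 in the protein-coding class, so comparisons with that class had no value there. With 1 peak per gene, 495 were left in lncRNA genes, with 8 overlaps with HNRNPC in all classes. The other 50 of 60 counts stayed within 1.5 times. No paired analysis was possible because 1 list was made from the pooled samples of a protein, and for the same reason no replicate could be left out. Depth per library is unknown, so an RNA without a peak may be unbound or too rare to detect.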
